A study of Mus musculus with 32 samples.

Results

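The comparison is between A01 and A02, a pair of mouse embryonic stem cell (ESC) clones that carry one and the same genotype, and it measures how far sister control clones can differ. Both clones are labelled Smarce1-MD(R42A) on the strain 129S5/SvEvBrd, and both were untreated. The members are all 6 libraries of these clones, 3 of A01 and 3 of A02, out of 24 ESC libraries and 32 libraries in the series. Cells were grown on gelatin in serum medium with LIF, the cytokine that keeps mouse ESC undifferentiated. MD is taken here, from general knowledge and not from the labels, as a mitotic degron that destroys the tagged protein at the end of mitosis, with R42A as its inactive form, so that these clones serve as controls for the clones labelled MD. Each group is therefore a single clone, and nothing in the labels says whether its 3 libraries came from separate cultures. A p-value here measures the spread between libraries of a clone, which may be technical, and speaks of these clones only. Genes of the Y chromosome were left out.

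The product of Smarce1 is BAF57, found in the SWI/SNF (BAF) complexes that use ATP to move nucleosomes. ESC clones of one genotype are each grown from a single cell, and they can carry different DNA methylation at imprinted genes, where only the maternal or only the paternal copy is normally active. They can also differ in chromosome copy number and in the small share of cells that drift towards endoderm or other lineages. Imprinted genes, whole chromosomes and lineage genes are therefore described in turn.

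Library depth was similar, with 47481872 to 54328968 counts in A01 and 43275667 to 46044512 in A02, and between 24789 and 25189 genes had a count. The 10 ESC markers summed to between 6980 and 7460 CPM (counts scaled to a common library total) in the A01 libraries and between 7020 and 7440 CPM in A02, so the labelled cell type matched its markers in both. Smarce1 itself (chromosome 11, 99209047 to 99231017, mm10) stood at 105, 109 and 111 CPM in A01 and at 95.3, 89.3 and 94.2 CPM in A02, with no overlap. It thus lay slightly lower in A02 (log2 change -0.23 ± 0.05, SE; adjusted p = 0.0619, and 1.21e-06 with same-numbered libraries compared as pairs). Pou5f1, the central pluripotency factor, lay at 1752, 1599 and 1897 CPM in A01 and 1758, 1682 and 1903 CPM in A02 (log2 change 0.02 ± 0.07, adjusted p = 0.907). Its small change turned sign when some libraries were left out. Sox2 changed by -0.06 ± 0.05 (adjusted p = 0.551), and Klf4 by 0.05 ± 0.05 (adjusted p = 0.616). Nanog, on chromosome 6, was the only factor of these 4 that rose, from 543, 501 and 572 CPM to 644, 668 and 698 CPM (log2 change 0.31 ± 0.06, adjusted p = 0.0478). With each chromosome scaled separately the adjusted p of Nanog was 0.274.

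Of 17838 genes tested, 479 (2.69%) passed an adjusted p of 0.05 in edgeR. Of these, 288 (1.61%) were higher in A02 and 191 (1.07%) were lower. A change of at least 2-fold was seen for 80 genes (0.448%) that rose and 8 (0.0448%) that fell. The 3 libraries of A02 lay wholly apart from those of A01 for all 479, and over all tested genes they lay wholly above for 14.3% and wholly below for 12.4%. Changes were mostly small, with a median absolute log2 change of 0.556 among the genes called and 0.142 among all tested.

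The libraries with the same number in both clones deviated together, so the comparison was also made within the 3 pairs. The median absolute log2 ratio between libraries of one clone was 0.0955 to 0.185, that between same-numbered libraries of both clones 0.125 to 0.15, and that between differently numbered ones 0.146 to 0.23. This block raised the calls to 6717 genes (37.7%), of which 3340 (18.7%) were higher in A02 and 3377 (18.9%) lower, and it kept 478 of the 479. Within pairs, 478 of the 479 were called again with each pair left out in turn. Without the pairing the calls depended on single libraries. Leaving out A01 library 1, 2 or 3 left 12, 233 or 183 calls, and leaving out A02 library 1, 2 or 3 left 20, 42 or 280. Of 82 genes called and named by rule, 7 passed with any 1 of the 6 libraries removed, namely Mid1, Rian, Meg3, S100a6, Calml4, Htra1 and Cdkn2a. All 82 passed in the paired fit with any pair removed. The paired fit has few libraries for its terms, so its p-values lean on a spread shared across genes. Fits with a pair removed have fewer still and reuse the same libraries, so they are not separate replication. Below, "called" means the test without pairing, and within pairs means the fit with the block.

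Imprinted genes were among the clearest differences. Of 48 tested, 4 were called higher and 7 lower in A02, with a median log2 change of -0.08 against -0.01 over all tested genes. Within pairs 13 were higher and 20 lower. The shares over all tested genes were 1.61% called higher and 1.07% lower, and 18.7% and 18.9% within pairs. The locus between Dlk1 and Dio3 on chromosome 12 held 4 of the 11 called genes. Its noncoding RNAs Meg3, Rian and Mirg are made from the maternal chromosome, and the protein-coding genes Dlk1 and Dio3 mainly from the paternal one. The bases upstream of the starts of Meg3, Rian and Dio3 are shown because these genes moved in opposite directions within one locus. They come from RefSeq on GRCm38.p6, run 5′ to 3′ on the plus strand and stop before the first annotated start, with each CG in capitals, the dinucleotide that carries DNA methylation.

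Meg3, chr12:109540746-109540995: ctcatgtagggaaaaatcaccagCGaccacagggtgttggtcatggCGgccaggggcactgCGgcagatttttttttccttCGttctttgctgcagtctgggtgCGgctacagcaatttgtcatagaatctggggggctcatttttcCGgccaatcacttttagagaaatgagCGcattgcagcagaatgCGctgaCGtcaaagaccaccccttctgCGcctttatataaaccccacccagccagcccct
Rian, chr12:109603695-109603939: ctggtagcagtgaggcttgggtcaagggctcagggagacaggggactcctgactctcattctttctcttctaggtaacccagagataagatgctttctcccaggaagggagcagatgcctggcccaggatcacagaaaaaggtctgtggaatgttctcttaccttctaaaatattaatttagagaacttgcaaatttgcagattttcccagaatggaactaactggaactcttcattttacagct
Dio3, chr12:110278980-110279067: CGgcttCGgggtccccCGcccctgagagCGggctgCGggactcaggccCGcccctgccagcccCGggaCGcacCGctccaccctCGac

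The motif searched was CG, which reads the same on both strands. In the 250 bases before the RefSeq start, Meg3 held 10, Rian 0 and Dio3 21, against a median of 6 in all 32851 RefSeq windows of that length. For Dio3 this window runs past the GENCODE start at 110279068. The Dio3 stretch printed above stops before that start and holds 10 CG in 88 bases. At least as many as in Meg3 stood in 37.8% of windows, and at least as many as in Dio3 in 16.3%. A count of CG describes these windows, and methylation was not measured.

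Rian stood at 565, 580 and 551 CPM in A01 and at 337, 318 and 330 CPM in A02. The groups did not overlap, and the log2 change was -0.79 ± 0.05 (adjusted p = 0.00136). Meg3 fell in step, from 404, 391 and 410 CPM to 249, 239 and 246 CPM (log2 change -0.72 ± 0.05, adjusted p = 0.00179). Mirg, at the far end of the same noncoding stretch, had 33.1, 28.1 and 38.1 CPM in A01 and 21.2, 16.6 and 22.8 CPM in A02 (log2 change -0.72 ± 0.14, adjusted p = 0.0441). All 3 noncoding genes thus fell by a like amount. Dio3, which encodes the deiodinase that inactivates thyroid hormone, went the other way, from 1.24, 1.33 and 1.73 CPM to 3.38, 5.23 and 4.58 CPM (log2 change 1.61 ± 0.21, adjusted p = 0.0171). Dlk1, a Notch-related membrane protein, overlapped between clones, with 4.99, 3.51 and 7.06 CPM in A01 and 5.33, 4.31 and 6.80 CPM in A02 (log2 change 0.07 ± 0.26, adjusted p = 0.903). The neighbours Wars and Ppp2r5c, outside the imprinted stretch, changed by -0.09 ± 0.11 and 0.01 ± 0.10. Without A02 library 1 the adjusted p of Rian and Meg3 stayed under the threshold, at most 0.0332 and 0.0349 over all 6 removals, while those of Mirg and Dio3 reached 0.203 and 0.146.

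On distal chromosome 7, H19, a maternally expressed noncoding RNA, had 4.08, 4.95 and 4.85 CPM in A01 and 1.74, 2.65 and 1.88 CPM in A02. It fell by 1.15 ± 0.18 on the log2 scale (adjusted p = 0.0272). Igf2, the paternally expressed growth factor next to it, moved in the other direction, from 1.02, 0.91 and 1.52 CPM to 2.35, 5.49 and 3.20 CPM (log2 change 1.67 ± 0.34, adjusted p = 0.0492). The A02 libraries of Igf2 were themselves spread more than 2-fold. Tspan32 in the same region rose from between 0.85 and 0.91 CPM to between 1.41 and 1.62 CPM (log2 change 0.79 ± 0.16, adjusted p = 0.0463). Further along, the growth inhibitor Cdkn1c (log2 change 0.63 ± 0.22) and the antisense RNA Kcnq1ot1 (-0.45 ± 0.28) overlapped between clones and had adjusted p-values of 0.164 and 0.407. Both passed within pairs, at 1.11e-08 and 1.04e-07. Without single libraries the adjusted p of H19, Igf2 and Tspan32 reached 0.146, 0.239 and 0.229, and within pairs with a pair left out at most 8.87e-05, 0.0231 and 0.0151.

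Elsewhere, Grb10, an adaptor that restrains insulin and IGF receptor signalling, rose from 42.3, 39.7 and 47.9 CPM to 69.2, 71.4 and 75.7 CPM (log2 change 0.73 ± 0.08, adjusted p = 0.0103). Mest, a paternally expressed hydrolase gene, fell from 228, 197 and 271 CPM to 130, 121 and 163 CPM (log2 change -0.75 ± 0.14, adjusted p = 0.0369). The paternally expressed noncoding RNA Peg13 fell from 8.63, 7.73 and 8.83 CPM to 5.68, 3.89 and 5.51 CPM (log2 change -0.75 ± 0.15, adjusted p = 0.0479). Snrpn, paternally expressed in the region of the Prader-Willi genes, fell from 222, 213 and 252 CPM to 158, 147 and 174 CPM (log2 change -0.53 ± 0.08, adjusted p = 0.0272). Maternally and paternally expressed genes were thus found in both directions, since H19 and Meg3 fell as Mest and Snrpn did, while Igf2 and Grb10 rose. The remaining imprinted genes included several with little change, such as Phlda2 (0.09 ± 0.11) and Ndn (0.07 ± 0.07). With 1 library removed, the adjusted p of Grb10, Mest, Peg13 and Snrpn reached 0.12, 0.19, 0.232 and 0.156.

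**Figure D1:**
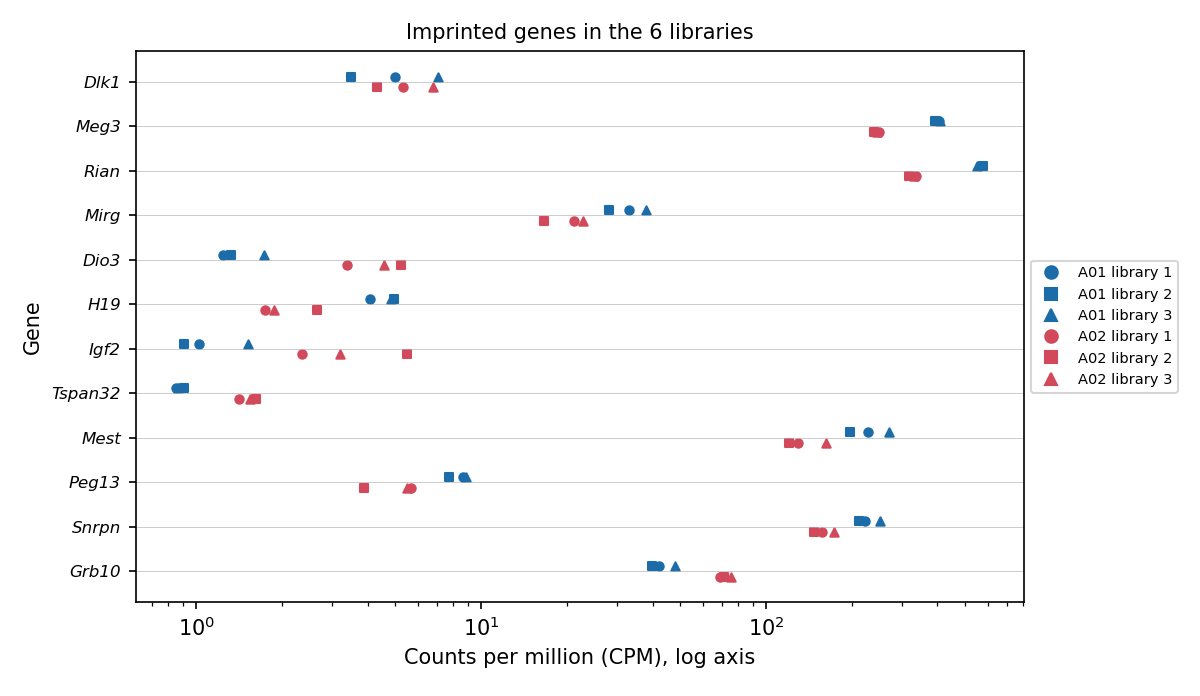
CPM on a log axis for 12 imprinted genes, 1 point per library, with clone A01 in blue and A02 in red. Meg3, Rian, Mirg, H19, Mest, Peg13 and Snrpn lie lower in every A02 library, Dio3, Igf2, Tspan32 and Grb10 lie higher, and Dlk1 overlaps.

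Whole chromosomes differed by small amounts. For each library the median log2 deviation of a chromosome's genes from their mean over the 6 libraries was taken, using genes of at least 1 CPM on average. Chromosomes 6, 14, 15 and X lay higher in A02, by 0.15, 0.131, 0.167 and 0.112 on the log2 scale, and chromosome 8 lay lower, at -0.121. All other chromosomes differed by between -0.0737 (chromosome 13) and 0.00484 (chromosome 7). For chromosome 15 the deviations were -0.0884, -0.0771 and -0.0809 in A01 and 0.063, 0.122 and 0.0695 in A02. For chromosome 8 they were 0.054, 0.0522 and 0.074 in A01 and -0.0521, -0.0795 and -0.05 in A02. The clones did not overlap on any of the 5 chromosomes, and each difference had the same sign in all 3 pairs. Both also held for chromosomes 1, 2, 3, 5, 12, 13, 16 and 18, which lay lower in A02 by smaller amounts. Chromosome 1, for example, differed by -0.0704, -0.0714 and -0.073 in pairs 1, 2 and 3. The exact two-sided permutation test over the 20 assignments of libraries gave p = 0.1 for each, the smallest it can give, and 0.154 after adjustment over 20 chromosomes, so this design cannot pass the threshold.

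Most stretches of these chromosomes shifted in the same direction. On chromosomes 6, 14 and 15, every stretch of 10 Mb with at least 20 genes (12, 8 and 7 stretches) had a median higher in A02. On chromosome 8 all 12 stretches were lower, and on X 10 of 11 were higher. Among stretches with fewer genes, 5 of 7 were lower on X and 2 of 5 on chromosome 14, and on chromosomes 6, 8 and 15 all followed their chromosome. Of the genes on chromosomes 6, 14, 15 and X, 82.9%, 76.7%, 83.3% and 73.0% were higher in A02, and of those on chromosome 8, 23.1%. Chromosomes 6, 14, 15 and X held 16.1% of genes tested and 130 (45.1%) of the 288 called higher, and chromosome 8 held 5.28% of genes tested and 28 (14.7%) of the 191 called lower.

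The most abundant called genes of these chromosomes changed by more than their chromosome's median, since they were chosen among genes called. Rpn1 on chromosome 6, a subunit of the complex that attaches sugars to new proteins, rose from 194, 191 and 201 CPM to 254, 264 and 260 CPM (log2 change 0.40 ± 0.05, adjusted p = 0.0125). On chromosome 14 the arginine methyltransferase Prmt5 rose from 202, 193 and 222 CPM to 262, 262 and 275 CPM (log2 change 0.37 ± 0.06, adjusted p = 0.0311). The small GTPase Arf3 on chromosome 15 rose by 0.28 ± 0.05 (adjusted p = 0.0378), and the membrane protein Plp2 on X by 0.36 ± 0.05 (adjusted p = 0.0211). Sf3b3 on chromosome 8, a splicing factor, fell from 1066, 1050 and 1025 CPM to 868, 788 and 840 CPM (log2 change -0.34 ± 0.05, adjusted p = 0.0245). When each chromosome was scaled separately, by the median log2 deviation of its genes in each library, the calls fell to 282 genes, 171 higher and 111 lower. Of these 5 genes only Rpn1 then passed (adjusted p = 0.0494; the others between 0.0775 and 0.349), and within pairs all 5 did, at most 0.00678. Of the 82 named genes called, 36 lost their call under that scaling without pairing, Krt8, Rhox6, Rhox9, Nanog and Sox1 among them, and within pairs none did. With 1 library removed the adjusted p of Rpn1, Prmt5, Arf3, Plp2 and Sf3b3 reached between 0.143 and 0.203.

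Mouse ESC are known to gain whole chromosomes in culture, with chromosomes 8 and 11 among the usual ones, and copy number was not measured here. Against the mean of all 8 ESC clones, chromosome 8 stood higher in A01 (0.407 ± 0.00933, SD, n = 3 libraries) and A02 (0.287 ± 0.0166) than in any other clone. In the other R42A clones, A04 and A10, it stood at 0.171 ± 0.092 and -0.0704 ± 0.0282, and in the MD clones 45, 47, 09 and 30 between -0.311 and -0.106. Chromosome 11 stood at -0.177 ± 0.00896 in A01 and -0.15 ± 0.0118 in A02, below all 4 MD clones (0.136 to 0.309). It was also low in A04 (-0.367 ± 0.0909) and A10 (-0.202 ± 0.0328). The gap between A01 and A02 on chromosome 8 was thus small beside the gap between both and the MD clones, and A01 and A02 were alike on chromosome 11. Clones 09, 30, A04 and A10 belong to another run of library numbers, so levels across the runs also differ by series.

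**Figure D2:**
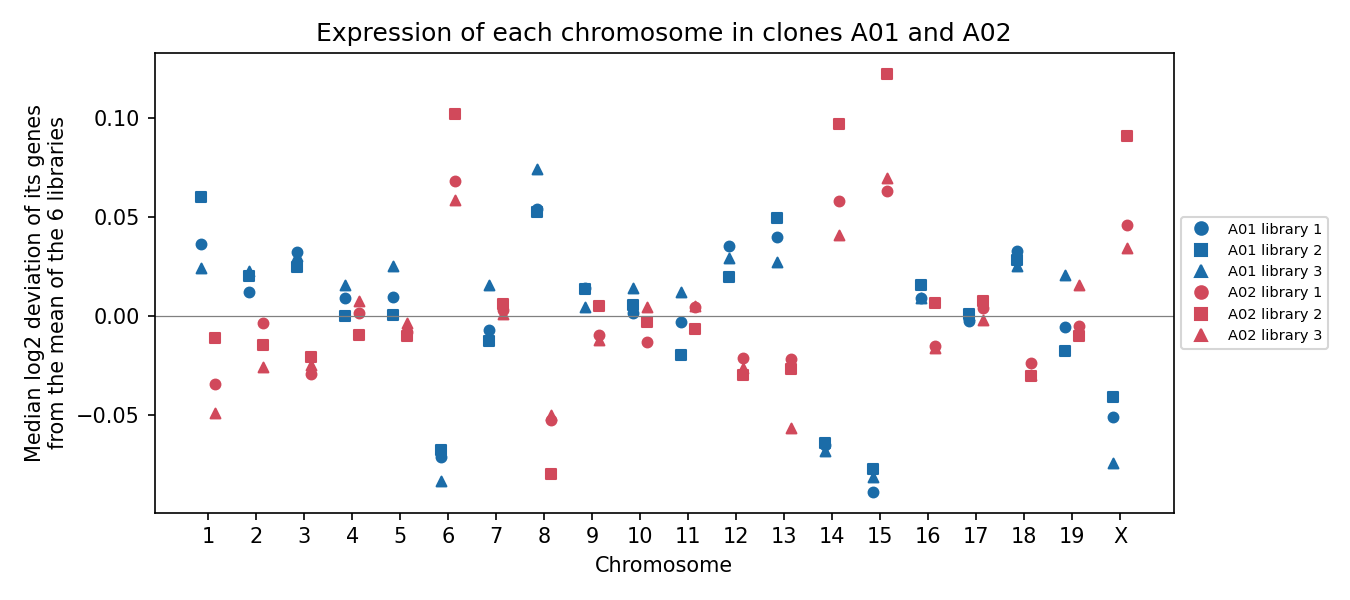
Median log2 deviation of each chromosome's genes from the mean over the 6 libraries, 1 point per library, with A01 in blue and A02 in red. Chromosomes 6, 14, 15 and X lie higher in all A02 libraries and chromosome 8 lower, with differences of 0.112 to 0.167 and -0.121.

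The largest single difference was Mid1 (X chromosome, 169685199 to 170005736, mm10), a microtubule-bound ubiquitin ligase whose gene spans the boundary of the pseudoautosomal region. It had 4.54, 3.41 and 3.83 CPM in A01 and 0.329, 0.262 and 0.181 CPM in A02. The log2 change was -3.92 ± 0.23 (adjusted p = 0.00136), opposite to that of its chromosome. The same step was seen in the other R42A pair, with 3.02 ± 0.158 CPM in A04 and 0.212 ± 0.071 CPM in A10 (SD, n = 3 libraries). In the MD clones Mid1 stood at 3.2 ± 0.243, 1.33 ± 0.221, 0.927 ± 0.0845 and 0.741 ± 0.0154 CPM in clones 45, 47, 09 and 30. Of its neighbours within 1000 kb, the predicted gene Gm21887 had 9.77, 16.4 and 12.1 CPM in A01 and 6.97, 7.41 and 7.37 CPM in A02 (log2 change -0.82 ± 0.18, adjusted p = 0.0548, and 1.51e-05 within pairs). Hccs, on the side away from the boundary, changed by 0.14 ± 0.07 (adjusted p = 0.313, and 0.0167 within pairs).

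Other large losses in A02 came from genes of varied roles. Zfp951, a zinc finger gene on chromosome 5, fell from 9.27, 6.97 and 9.25 CPM to 3.38, 2.25 and 3.65 CPM (log2 change -1.46 ± 0.20, adjusted p = 0.018). Titin (Ttn), the giant sarcomere protein, fell from 85.6, 67.6 and 85.4 CPM to 47.3, 34.4 and 41.6 CPM (log2 change -0.96 ± 0.13, adjusted p = 0.018). Tgm3, a transglutaminase, fell by 0.95 on the log2 scale, and the neural progenitor factor Sox1 fell from 17.6, 16.1 and 21.8 CPM to 11.3, 8.35 and 12 CPM (log2 change -0.82 ± 0.16, adjusted p = 0.0436). Sox1 lies on chromosome 8, and its adjusted p with chromosomes scaled separately was 0.0733. Ctxn3, Dbx2, Zfp629, Fam196b, Dgkb, Sypl2, Maml2 and Pogk fell by between 0.78 and 1.19 on the log2 scale. With 1 library left out the adjusted p of these genes other than Mid1 reached between 0.139 and 0.228.

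Genes that rose most in A02 encode mainly secreted, surface and signalling proteins. S100a6, a calcium-binding protein, rose from 7.59, 6.06 and 7.30 CPM to 25.7, 24.4 and 27.6 CPM (log2 change 1.89 ± 0.10, adjusted p = 0.00136). Wnt7b, a Wnt ligand, rose from 0.458, 0.644 and 0.501 CPM to 1.62, 2.91 and 2.27 CPM (log2 change 2.07 ± 0.27, adjusted p = 0.0166). Mesothelin (Msln), a surface protein, rose from 1.53, 1.74 and 1.16 CPM to 5.21, 7.33 and 4.65 CPM (log2 change 1.95 ± 0.23, adjusted p = 0.0125). The secreted protease Htra1 rose from 3.38, 3.13 and 3.37 CPM to 9.04, 10.2 and 11.2 CPM (log2 change 1.62 ± 0.12, adjusted p = 0.00216). Ikbke, a kinase of innate immune signalling, rose by 1.79 ± 0.16 (adjusted p = 0.00553), and the calmodulin-like gene Calml4 by 1.73 ± 0.13 (adjusted p = 0.00273). The growth factor Csf1 (2.06 ± 0.38), C1qtnf6 (1.56 ± 0.30) and the receptor Tgfbr2 (1.51 ± 0.24) rose from levels near or under 1 CPM, where counts are few. With 1 library left out the adjusted p of Wnt7b, Msln, Ikbke, Csf1, C1qtnf6 and Tgfbr2 reached between 0.063 and 0.199.

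**Figure D3:**
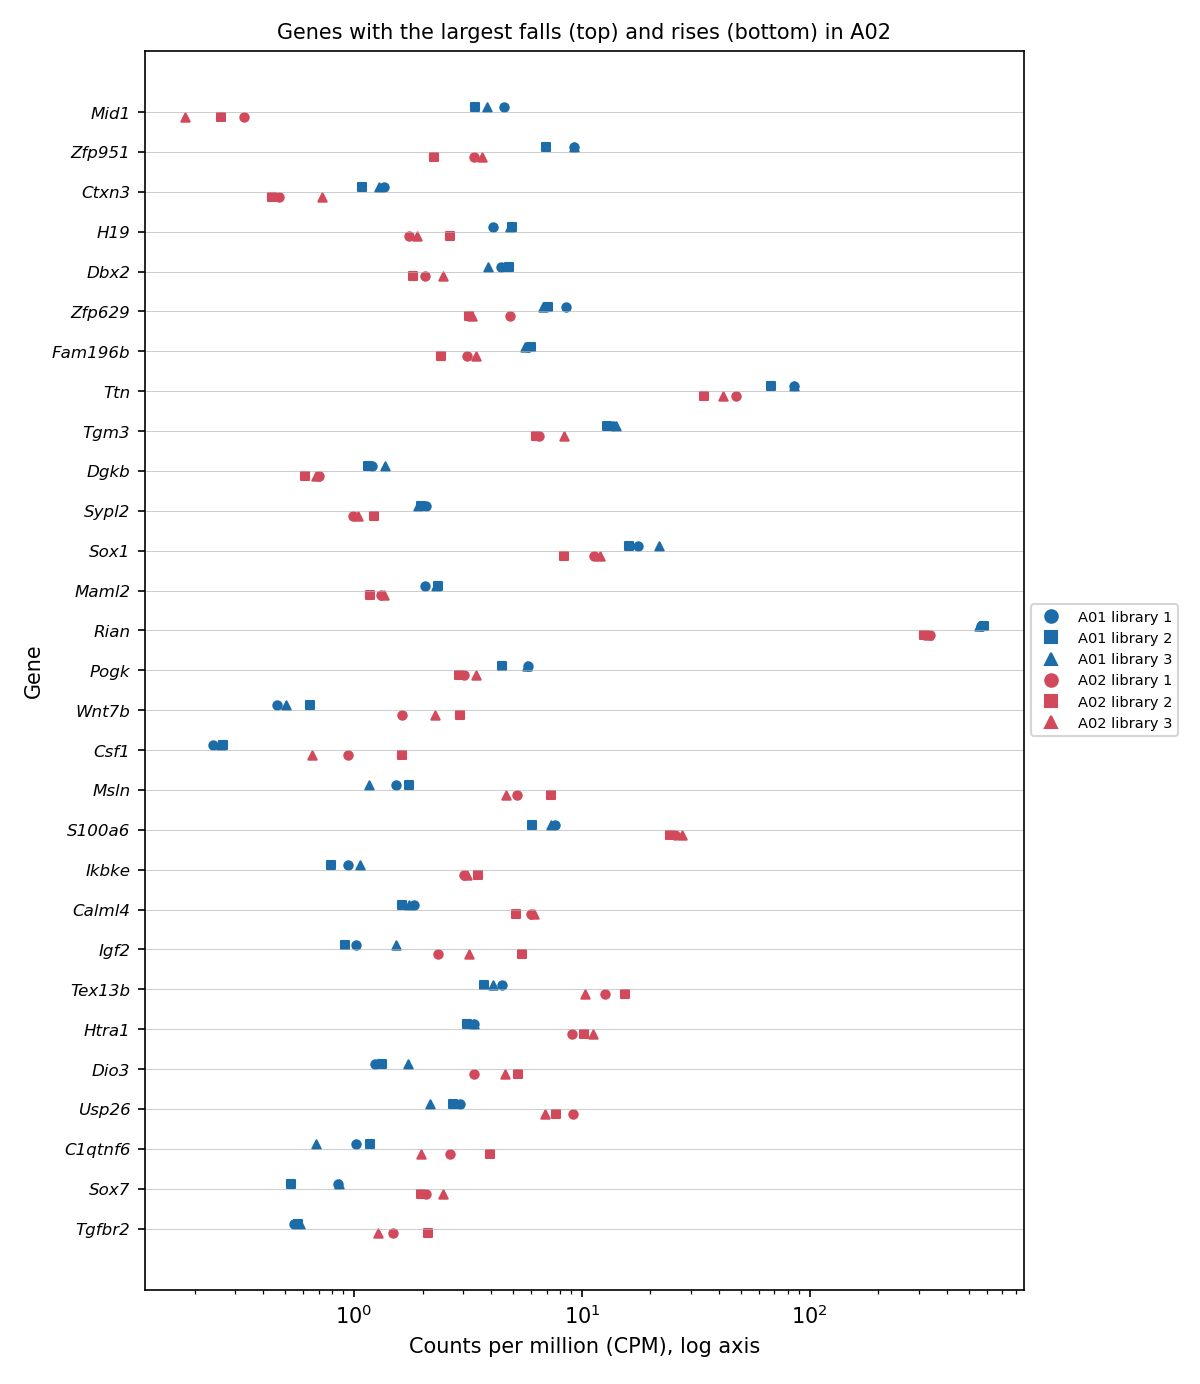
CPM on a log axis for the 15 genes with the largest fall and 14 of the 15 with the largest rise in A02 among those named by rule, 1 point per library, A01 in blue and A02 in red. No gene overlaps between clones, and Mid1 is set apart, from between 3.41 and 4.54 CPM to between 0.181 and 0.329 CPM.

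Several endoderm and epithelial genes rose in A02. Of 26 tested genes of primitive and definitive endoderm, 6 were called higher and none lower, with a median log2 change of 0.63, and within pairs 17 were higher and 2 lower (Lrp2 and Lamc1). Over all tested genes 1.61% were called higher, and 18.7% within pairs. Gata4, a master factor of endoderm, rose from 1.24, 1.29 and 1.32 CPM to 2.18, 3.41 and 2.86 CPM (log2 change 1.13 ± 0.19, adjusted p = 0.0308). Sox7, another endoderm factor, rose from 0.85, 0.531 and 0.862 CPM to 2.07, 1.97 and 2.45 CPM (log2 change 1.53 ± 0.22, adjusted p = 0.0196). The basement membrane collagens Col4a1 and Col4a2 rose by 0.56 ± 0.08 and 0.83 ± 0.12 although they lie on chromosome 8, and the matrix protein Sparc rose from 104, 102 and 113 CPM to 156, 158 and 162 CPM (log2 change 0.57 ± 0.06, adjusted p = 0.00698). The late endoderm markers Afp and Ttr were at or below 0.0654 CPM in every library. The 7 endoderm markers together summed to between 2.92 and 3.08 CPM in A01 and between 5.89 and 7.41 CPM in A02.

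Of 18 genes of surface ectoderm and epithelium, 4 were called higher and none lower (median log2 change 0.54), and within pairs 14 were higher and 1 lower (Cdh1, on chromosome 8). Among all tested genes 1.61% were called higher and 1.07% lower, and within pairs 18.7% and 18.9%. Keratin 8 (Krt8), a filament protein of simple epithelia and endoderm, rose from 9.51, 11.7 and 10.9 CPM to 17.8, 29.6 and 18.8 CPM (log2 change 1.04 ± 0.20, adjusted p = 0.039). Its partner Krt18 changed by 1.04 ± 0.27, with an adjusted p of 0.0862 and of 8.89e-10 within pairs. Krt17 rose from 5.04, 5.91 and 5.74 CPM to 12.3, 16.4 and 14.2 CPM (log2 change 1.36 ± 0.13, adjusted p = 0.00587). The junction protein Perp and the checkpoint protein Sfn rose by 0.75 ± 0.11 and 0.60 ± 0.10. Krt8 is counted in both lists. With 1 library removed, the adjusted p of the called endoderm and epithelial genes named here reached between 0.063 and 0.207.

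Markers of other cell types moved too. The 7 fibroblast markers summed to between 6.17 and 7.41 CPM in A01 and between 10.0 and 14.7 CPM in A02. Thy1 made up most of this sum, Lum was at 0 in all 6 libraries, and Postn and Twist2 stayed under 0.05 CPM. Of 11 fibroblast and mesenchyme genes tested, Thy1 was called higher and none lower, and within pairs 7 were higher and 1 lower. Beside this and the mesoderm list below, 1.61% of all tested genes were called higher and 1.07% lower. Within pairs these shares were 18.7% and 18.9%. The trophectoderm markers summed to between 4.07 and 4.87 CPM in A01 and 5.33 to 5.83 CPM in A02, mostly from Eomes. The sum of the 4 mesoderm markers went down, from between 2.37 and 2.6 CPM to between 1.88 and 1.97 CPM. The longer list of mesoderm and primitive streak genes went the other way, with a median log2 change of 0.37 over 16 tested. Of these, Gata4, also an endoderm gene, was called higher and none lower, and within pairs 5 were higher and 2 lower. The blood and endothelium markers summed to between 4.09 and 4.34 CPM in A01 and between 4.92 and 5.05 CPM in A02. The neural markers summed to 132 to 217 CPM and 99.9 to 170 CPM, with Dcx at 0 in all. Sox1, Pax6 and Tubb3, which made up nearly all of the neural sum, were lower in A02 in each pair (adjusted p = 4.86e-12, 2.63e-07 and 2.5e-10 within pairs). In bulk RNA, more cells of a type cannot be told apart from more RNA per cell, and their part in the other changes was not tested.

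Of 20 genes of Nodal, TGFb and BMP signalling, 3 were called higher and none lower, and within pairs 8 were higher and 3 lower. The background over all tested genes was 1.61% called higher and 1.07% lower, and 18.7% and 18.9% within pairs. Lefty2, a secreted inhibitor that Nodal signalling induces, rose from 32, 46.9 and 31 CPM to 84.1, 113 and 61.3 CPM (log2 change 1.23 ± 0.24, adjusted p = 0.0422). Library 2 was the highest and library 3 the lowest within A02. Lefty1 changed by 0.75 ± 0.18 (adjusted p = 0.0693, 0.025 within pairs and up to 0.114 there with a pair left out), and the ligand Nodal itself by 0.22 ± 0.06 (adjusted p = 0.0867, and 1.87e-05 within pairs). Leaving out 1 library raised the adjusted p of Lefty2 to at most 0.22.

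X-linked genes of the germline and placenta formed a further group. Of 18 tested in the Rhox, Xlr and related clusters, 4 were called higher and none lower, and within pairs the same number were higher and 1, Rhox13, was lower. Over all tested genes 1.61% were called higher, and 18.7% within pairs. Of 682 genes tested on X, 25 were called higher, and 255 within pairs. Rhox5 rose from 12.9, 16.2 and 12.5 CPM to 22.5, 28.7 and 23.9 CPM (log2 change 0.85 ± 0.13, adjusted p = 0.0244). Rhox6, Rhox9 and Xlr5a rose by 1.20 ± 0.21, 0.79 ± 0.16 and 1.19 ± 0.14, and each passed. Tex13b, an X-linked germ cell gene, rose from 4.45, 3.71 and 4.07 CPM to 12.6, 15.4 and 10.4 CPM (log2 change 1.65 ± 0.16, adjusted p = 0.00674), and Usp26, a germ cell ubiquitin protease on X, from 2.92, 2.73 and 2.15 CPM to 9.18, 7.74 and 6.92 CPM (log2 change 1.61 ± 0.16, adjusted p = 0.00743). These genes were chosen among genes called, and their rises were several times that of the X chromosome as a whole (0.112). Among 31 germline and meiosis genes, Tex13b, Hormad2 and Smc1b were called higher and none lower, whereas within pairs 4 were higher and 7 lower. The members of the Rhox and Xlr clusters are near copies of each other, so how reads were shared among them is uncertain. With 1 library left out their adjusted p reached between 0.063 and 0.228.

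The neighbours Cdkn2a and Cdkn2b on chromosome 4, which encode inhibitors of the cyclin-dependent kinases of G1 and the p53 activator ARF, both rose. Cdkn2a had 5.56, 4.09 and 5.2 CPM in A01 and 12.2, 13.7 and 13 CPM in A02 (log2 change 1.38 ± 0.13, adjusted p = 0.00556). Cdkn2b had 1.16, 1.10 and 0.662 CPM in A01 and 2.91, 2.89 and 2.06 CPM in A02 (log2 change 1.42 ± 0.25, adjusted p = 0.0319, at most 0.156 with 1 library removed). The adjacent Mtap changed by 0.21 ± 0.05 (adjusted p = 0.0666, and 9.17e-06 within pairs), and Klhl9 on the same side by -0.26 ± 0.08 (adjusted p = 0.123, and 4.98e-05 within pairs). Among 28 genes of G1/S and DNA replication these were the only 2 called higher, and the kinase Cdk6 was called lower (-0.56 ± 0.08, adjusted p = 0.0199, at most 0.154 with 1 library removed). Within pairs 9 of the 28 were higher and 3 lower. Of 23 p53 targets, only Perp was called, and within pairs 9 were higher and 2 lower. For comparison, 1.61% of all tested genes were called higher and 1.07% lower, and 18.7% and 18.9% within pairs. Cdkn1a, the inhibitor that p53 induces, changed by 0.15 ± 0.11 (adjusted p = 0.506, and 0.00406 within pairs).

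Some genes of the formative state and of FGF signalling fell in A02. FGF acting through ERK moves ESC out of the naive state, and the pathway induces its own inhibitors. Of 15 FGF and ERK feedback genes 3 were called lower and none higher (median log2 change -0.21), and within pairs 9 were lower and 1, Fgfr2, was higher. Over all tested genes 1.07% were called lower, and 18.9% within pairs. Spry4, an inhibitor of the pathway, fell from 228, 223 and 234 CPM to 177, 150 and 178 CPM (log2 change -0.44 ± 0.07, adjusted p = 0.0272). The phosphatase Dusp6, which acts on ERK, fell from 71.2, 69.7 and 72.2 CPM to 57.6, 52.5 and 60.4 CPM (log2 change -0.33 ± 0.06, adjusted p = 0.0407). The ETS factor Etv5 fell from 448, 452 and 437 CPM to 362, 342 and 367 CPM (log2 change -0.33 ± 0.05, adjusted p = 0.0224). Of 17 formative and primed genes, 1 was called higher and 3 lower (median log2 change -0.27), and within pairs 2 were higher and 11 lower. Sox4 (-0.54 ± 0.07) and Car14 (-0.74 ± 0.15) were called lower with Etv5, and Pou3f1, a factor of the primed state, was called higher (0.59 ± 0.12, adjusted p = 0.0483). Otx2, a driver of the formative state, changed by -0.53 ± 0.15 (adjusted p = 0.0983, and 1.08e-07 within pairs). Of 25 naive genes Nanog was called higher and Spp1 lower (-0.70 ± 0.07), and within pairs 4 were higher and 13 lower. With 1 library removed, the adjusted p of Spry4, Dusp6, Etv5, Sox4, Car14, Pou3f1, Nanog and Spp1 reached between 0.089 and 0.238.

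Some groups differed only when libraries were compared in pairs. Of 26 genes of cholesterol and fatty acid synthesis none was called without pairing, and within pairs 22 were higher in A02 and 1, Acaca, was lower. The median difference of the group was 0.404, 0.302 and 0.218 in pairs 1, 2 and 3, against -0.00264, 0.00263 and -0.0123 over all tested genes. Fdft1, the enzyme that makes squalene, is an example. It had 90.7, 122 and 72.1 CPM in A01 and 152, 188 and 106 CPM in A02, so library 2 was highest and library 3 lowest in both clones, and A02 was higher in each pair (log2 change 0.64 ± 0.24, adjusted p = 0.183, and 2.09e-15 within pairs). Hmgcs1, the first enzyme committed to the pathway, had 177, 255 and 132 CPM against 248, 309 and 172 CPM (log2 change 0.37 ± 0.27, adjusted p = 0.476, and 3.54e-10 within pairs). Of 30 hypoxia and glycolysis genes, 0 were called without pairing, and within pairs 18 were higher and 2 lower, against 18.7% and 18.9% of all tested genes. Tpi1, a glycolytic enzyme, changed by 0.40 ± 0.16 (adjusted p = 0.222, and 3.21e-13 within pairs). Of 16 smooth muscle actin and SRF targets none was called without pairing, and within pairs 12 were higher and 1 lower, among them Thbs1 (2.26 ± 0.59, adjusted p = 0.0868, and 4.35e-12 within pairs).

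**Figure D4:**
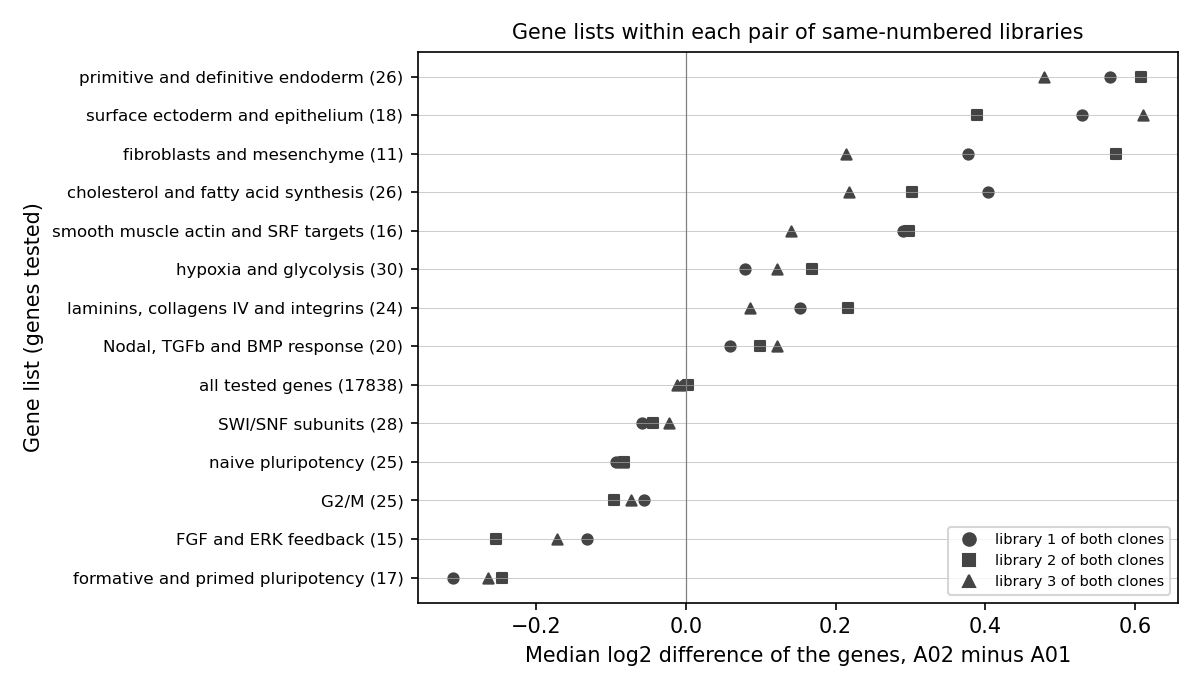
Median log2 difference between A02 and A01 of the tested genes of 13 lists and of all tested genes, 1 point for each pair of same-numbered libraries. Endoderm, epithelial and cholesterol genes lie above 0.2 in all 3 pairs, FGF feedback and formative genes below -0.1, and all genes near 0.

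Few chromatin genes were called without pairing, as over all tested genes, where 1.61% were called higher and 1.07% lower. Within pairs the shares over all tested genes were 18.7% and 18.9%. None of 28 SWI/SNF subunits was called without pairing, and within pairs 2 were higher and 10 lower, with Smarce1 and Arid1a (-0.22, adjusted p = 0.166) among the latter. Of 31 Polycomb and trithorax genes 1 was called, Ash2l on chromosome 8 (-0.36 ± 0.05, adjusted p = 0.018), and within pairs 7 were higher and 9 lower. Of 16 genes that write or erase DNA methylation 1 was called, Tet2, an enzyme that oxidises methylcytosine, which fell from 286, 275 and 263 CPM to 218, 209 and 209 CPM (log2 change -0.38 ± 0.05, adjusted p = 0.018). Within pairs 4 of the 16 were higher and 7 lower, among them the methyltransferase Dnmt3a (-0.40 ± 0.12, adjusted p = 6.89e-13 within pairs). Dnmt3b and Dnmt3l changed by -0.12 ± 0.07 and -0.03 ± 0.05 (adjusted p = 0.346 and 0.809, and 0.00129 and 0.52 within pairs), and the change of Dnmt3l turned sign in the paired fit without pair 2. Of 25 G2/M genes Mad2l1 on chromosome 6 was called higher, and within pairs 1 was higher and 13 lower. Of 23 genes of the 2-cell-like state none was called, and within pairs 10 were lower and 1 higher. Xist, the RNA of X inactivation, had between 30 and 37 counts in A01 and between 43 and 66 in A02 (log2 change 0.96 ± 0.23, adjusted p = 0.0671, and 0.00039 within pairs). With 1 library removed the adjusted p of Ash2l and Tet2 reached 0.146 and 0.154, and for Mad2l1 it reached 0.219.

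Calls in other groups stand beside those over all tested genes, of which 1.61% were called higher and 1.07% lower. Within pairs 18.7% of all tested genes were higher and 18.9% lower. Of 14 trophectoderm and placenta genes Wnt7b and Ets2 were called higher and none lower, and within pairs 7 were higher. Of 24 laminins, type IV collagens and integrins, Itga7 was called higher beside Col4a1 and Col4a2, and within pairs 11 were higher and 4 lower. Of 22 neuronal genes, Mapt (0.74 ± 0.08, adjusted p = 0.0123), which encodes the microtubule protein tau, and Sncg were called higher and none lower, and within pairs 4 were higher and 5 lower (Stmn2, Stmn3, Tubb3, Ina and Crmp1). Of 16 interferon response genes, Ifitm3 and Gbp2 were called higher, and within pairs 8 were higher and 2 lower. Neither Wnt nor Notch response genes (15 and 14 tested) held a call without pairing, and neither did 38 ribosomal protein genes. Within pairs 1 Wnt response gene was higher and 7 were lower, against 3 and 2 for Notch and 7 and 10 for ribosomal proteins.

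The other pairs of sister clones give the scale of these differences. By the same test 1942 of 19378 genes (10.0%) were called between the R42A clones A10 and A04, 1039 of 18155 (5.72%) between the MD clones 47 and 45, and 24 of 19133 (0.125%) between the MD clones 30 and 09. These counts come from the test without pairing. A fit with pairing was also made for these pairs, but its counts are not given here, and no library was left out. The 479 between A02 and A01 moved from 12 to 6717 with libraries left out or paired, so the pairs are not ranked. Between A10 and A04, 974 (5.03%) were higher in A10 and 968 (5.0%) lower.

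Many of the genes that set A02 apart from A01 also set A10 apart from A04, which share no library with them. Of 287 genes called higher in A02 and tested in the other pair, 281 (97.9%) were higher in A10 than in A04, 114 of them by a call of their own. Of 190 called lower, 177 (93.2%) were lower in A10, 56 by a call of their own, and no gene was called in opposite directions. Over all 17666 genes tested in both pairs 70.7% had the same sign, with a Pearson correlation of 0.491 and a Spearman correlation of 0.527 across genes, which are not independent replicates. Which clone of a pair is set against which is arbitrary, so the order A10 against A04 has no meaning of its own. On the chromosomes that differed between A01 and A02 the shifts had the same sign, with medians of 0.0797, 0.0746, 0.104 and 0.0447 on chromosomes 6, 14, 15 and X and -0.298 on chromosome 8 between A10 and A04. Chromosome 11 shifted by 0.115 between A10 and A04 and by 0.00454 between A02 and A01. Between the MD clones 47 and 45, 62.0% of the genes called here had the same sign, against 52.7% of all tested genes, and between 30 and 09 59.7% against 50.7%.

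Several named genes followed the same course, and others did not. Wnt7b stood at 1.25 ± 0.522 CPM in A04 and 6.82 ± 0.351 CPM in A10 (SD, n = 3 libraries; log2 change 2.42, adjusted p = 0.00146). Htra1 stood at 4.07 ± 1.74 and 18.3 ± 0.845 CPM (log2 change 2.15, adjusted p = 0.00224). Gata4 stood at 1.37 ± 0.156 and 4.52 ± 0.311 CPM (log2 change 1.70, adjusted p = 0.000841). Meg3 and Rian were lower in A10, by log2 changes of -0.49 and -0.54 (adjusted p = 0.0108 and 0.0191), and Igf2 was higher by 1.64 (adjusted p = 0.000885). Spry4 fell by 0.88 on the log2 scale (adjusted p = 0.00191). Lefty2 changed by -0.16 between A10 and A04 (adjusted p = 0.799), though the difference between the pairs did not pass (adjusted p = 0.205). H19, lower in A02, changed by 0.25 between A10 and A04 (adjusted p = 0.325). Xlr5a, higher in A02, changed by -0.23 there (adjusted p = 0.412). For H19 and Xlr5a the difference between the pairs passed (adjusted p = 0.00608 and 0.00321). Prmt5 hardly changed between A10 and A04 (-0.00077, adjusted p = 0.998). The test of the difference between the 2 pairs called 256 of 19380 genes (1.32%), of which 204 (1.05%) had the greater value in A02 less A01 and 52 (0.268%) the smaller. Without A02 library 1 or 3 it called 167 or 149. Among the genes called between A02 and A01, 14 differed between the pairs, 8 of them higher and 6 lower in A02.

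**Figure D5:**
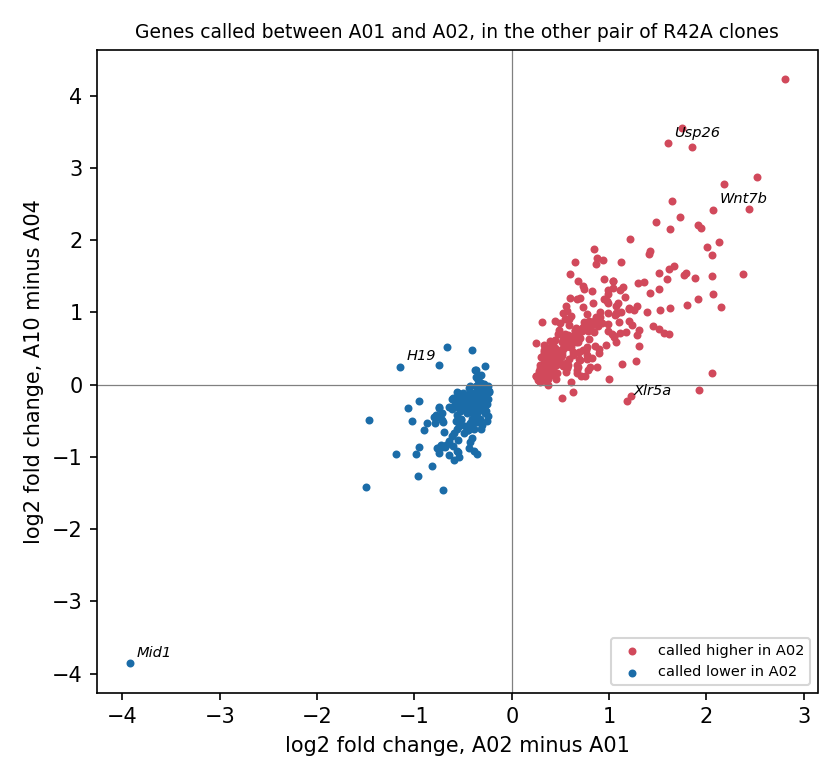
Log2 fold change between A02 and A01 (horizontal) and between A10 and A04 (vertical), 1 point per gene called between A02 and A01 and tested in both pairs, red for higher and blue for lower in A02. Most points lie at the lower left and upper right, with 97.9% of the red genes above 0 and 93.2% of the blue genes below 0.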

How the data were processed

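Total RNA of 24 ESC libraries was measured, and the 6 of clones A01 and A02 form the comparison; 8 neural libraries of the series were not used here. The authors deposited RSEM expected counts per gene. Tools listed there, per the submitters' processing notes, were RSEM 1.3.0, STAR 2.7.1a, DESeq2 and Trim Galore 0.60, with build mm10, and the strand setting and annotation release are not given in the sources used here, so overlapping and antisense genes are uncertain. Between 1.461% and 1.68% of deposited values were not whole, and all were rounded. Of 55573 genes, 55480 matched GENCODE M21 by Ensembl ID, which gave positions, and 1562 Y-linked genes and 92 spike-in entries with a total count of 0 were left out.

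Levels are CPM after TMM scaling over the 24 libraries. The test was edgeR 4.0.16 (R 4.3.3), quasi-likelihood with a robust fit on the 6 libraries, a minimum count of 10 (filterByExpr) and Benjamini-Hochberg adjustment over all tested genes, called below 0.05 and written as A02 minus A01; an SE is the log2 change divided by the square root of F. Other fits used DESeq2 1.42.0 and limma 3.58.1 (voom). Summaries used Python 3.11.15, pandas 2.3.3 and numpy 2.4.6. Chromosome medians used log2 CPM with a prior count of 2. The test was tested on simulated data. Depth ran from 43275667 to 54328968 counts, and counting error is small beside library spread except near 1 CPM.

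The labels number the libraries 1 to 3 in each clone. Deviations from the clone means correlated at 0.237, 0.708 and 0.75 between same-numbered libraries and at -0.697 to 0.0491 between others, so the numbers were taken as pairs and a fit with the number as a block was made. Whether they mark a shared day or extraction is not given in the labels. Named genes were up to 15 of the largest calls in each direction without predicted genes, up to 4 called members per list at 1 CPM or more, 14 set genes and the 3 most abundant calls of each shifted chromosome, 92 in all. Neighbours within 1000 kb and further list members were named with their values known. The clones and the 41 gene lists were chosen with earlier results of these data known. Alternatives covered scaling, filters, tools, the libraries fitted and each library left out. Some genes that the rule names are not reported here.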

Additional observations from a re-analysis of the deposited data

Results flagged for a closer look

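The change between A01 and A02 was set against that between A04 and A10, the other clones of the same genotype, by an interaction term over the 12 libraries in edgeR. Of the named genes, 5 passed that test. For Usp26 the difference (A02 less A01, minus A10 less A04) was -1.74 on the log2 scale (adjusted p = 0.00192), as it rose from 2.6 ± 0.404 to 7.95 ± 1.15 CPM between A01 and A02 and from 4.63 ± 0.937 to 47.4 ± 0.832 CPM between A04 and A10 (SD, n = 3 libraries each). For Rhox5 it was -1.03 (adjusted p = 0.00582), with 13.9 and 25 CPM against 16.5 and 60.9 CPM. For Hormad2 it was -0.94 (adjusted p = 0.0117), with 7.73 and 11.7 CPM against 6.24 and 18.3 CPM. These 3 germline genes were higher in the second clone of both pairs and differed in size.

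H19 had a difference of -1.41 (adjusted p = 0.00608), falling from 4.63 ± 0.477 to 2.09 ± 0.488 CPM between A01 and A02 while A04 and A10 stood at 7.68 ± 0.852 and 9.22 ± 0.447 CPM. Xlr5a had a difference of 1.41 (adjusted p = 0.00321), with 1.27 and 2.91 CPM in A01 and A02 against 18.5 and 16 CPM in A04 and A10. Xlr5a has near copies in its cluster, so its reads are uncertain. A pair of clones and its series of libraries cannot be told apart in these differences.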

How the results depend on the processing

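Without pairing, single libraries set the number of calls: 479 genes were called with all 6 and 12 to 280 with 1 left out, 8 to 183 higher and 4 to 101 lower. With the replicate block, which compares paired libraries, 6717 were called (3340 higher, 3377 lower), and without pair 1, 2 or 3 the block gave 4181 (2125, 2056), 5005 (2489, 2516) or 5559 (2829, 2730). DESeq2 called 1271 (699 higher, 572 lower). With each chromosome scaled separately 282 were called (171, 111), and with the block and that scaling together 5708 (2907, 2801). No filter on low counts raised the lower calls to 306. The numbers of calls stayed within 1.5 times under upper-quartile scaling (313 higher, 165 lower), a minimum count of 50, voom and fits on 12 or 24 libraries. Among the 92 named genes the block added calls for Smarce1, Esrrb, Zfp42, Dnmt3b and Xist and removed none. The difference between the clone pairs called 256 genes, 505 by DESeq2 and 149 to 231 with 1 library left out. Changes near 0 turned sign: Pou5f1 lay between -0.0383 and 0.0823 with 1 library left out and at -0.0011 in the block fit without pair 2. Tbx3 lay between -0.0531 and 0.0739, and at -0.0362 in that fit, where Dnmt3l stood at 0.00201. Leaving out single libraries moved the chromosome medians little (0.146 to 0.16 for chromosome 6, 0.143 to 0.173 for 15, -0.126 to -0.111 for 8). The block with each pair removed and the block with chromosome scaling were chosen after seeing the data; the cause of these changes was not tested.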
